A study of Sus scrofa with 12 samples.

Results

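The loci described here are rows of the deposited expression table whose identifier begins with MSTRG in place of an Ensembl pig gene identifier and whose mean TPM over all 12 libraries is at least 1. TPM is a relative abundance of transcripts, scaled for transcript length and for the total of each library. The table held 32518 rows, of which 610 began with MSTRG, and 531 of these met the abundance rule. The 79 others lay under it, 14 of them at 0 in every library. No locus was removed by a further filter, because the tested rows were chosen by the same rule: 11897 rows in all had a mean TPM of at least 1, of which 11366 were Ensembl genes. The nearest loci outside the rule were MSTRG.10071, MSTRG.14830 and MSTRG.9453, with mean TPM of 0.975, 0.983 and 0.997. The nearest inside it were MSTRG.9951, MSTRG.10368 and MSTRG.2259, at 1.00, 1.02 and 1.02. A mean over all libraries of at least 1 can be reached through a single group, and 7 of the 531 loci had a group mean of at least 1 in only 1 of the 4 groups. A further 24 reached it in 2 groups, 68 in 3 and 432 in all 4.

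The cells were IPEC-J2, an established, non-transformed epithelial line derived from piglet jejunum, so all samples are 1 cell line and no tissue of an animal. In 2 groups the cells received deoxyshikonin, a naphthoquinone of Lithospermum roots, at 5 µmol/L and were sampled after 6 h or 24 h. The other 2 groups were untreated controls sampled at the same times. Each group held 3 libraries of total RNA (control 6 h, control 24 h, deoxyshikonin 6 h and deoxyshikonin 24 h), and the labels name no genotype or vehicle. Nothing in the labels says that replicates came from separate cultures, so p-values measure the spread between these libraries, which may be technical.

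When reads are assembled into transcripts without relying on an annotation alone, assembled loci receive running identifiers. MSTRG is the default prefix of such identifiers in the assembler StringTie. No assembler is named in the sources used here. A locus listed under such an identifier alone can be an unannotated protein-coding gene, a long noncoding RNA, or a pseudogene or repeat copy. It can also be a piece of a known gene whose annotated model ends too early. Running numbers normally follow genome order, so neighbouring numbers can mark neighbouring or fragmentary loci. The 531 loci carried numbers from 20 to 15888. A table of identifiers and symbols paired 15029 of the 32518 identifiers with a symbol and none of the 531, and neither position nor sequence of these loci was among the files used. Every locus is therefore given by its number, and strand, exons and coding potential were not analysed here.

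The epithelial label was checked with markers. All 7 epithelial markers with a symbol in the table had a median of at least 1 TPM, led by KRT8 at 2050 TPM. The lowest of them was VIL1, at a median of 1.475 TPM and 0.43 TPM in its lowest library. Of 5 fibroblast, 4 leukocyte and 3 endothelial markers, those at a median of 1 TPM or more were COL1A1 (5.245), COL1A2 (1.07), CD14 (2.71) and PECAM1 (14.2). The leukocyte markers PTPRC, CD3E and CSF1R had a median of 0. The summed level of the epithelial markers was 5524 to 5678 TPM in 6 h controls and 4134 to 4348 in 6 h treated libraries, against 5967 to 6220 and 6116 to 6280 at 24 h. The leukocyte sum, carried by CD14, was 1.23 to 1.35 and 5.32 to 7.15 TPM at 6 h and 1.47 to 1.60 and 3.82 to 4.94 TPM at 24 h. The fibroblast sum was 9.16 to 9.72 TPM in controls and 5.80 to 6.81 TPM in treated libraries at 6 h, and 7.48 to 8.26 and 3.11 to 3.75 TPM at 24 h. The endothelial sum was 10.8 to 15.6 and 20.3 to 25.0 TPM at 6 h, while its 24 h ranges of 9.45 to 13.9 and 11.1 to 17.2 TPM overlapped. The part of these levels in the results below was not tested.

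The 531 loci together held between 1.78% and 2.48% of a library's TPM. Their summed TPM was 23796, 22959 and 23940 in the control 6 h libraries, and 18004, 17809 and 18471 in the deoxyshikonin 6 h libraries. All treated libraries lay below all controls at 6 h. The difference of means was -5470 TPM (exact two-sided permutation p = 0.1, adjusted 0.2 over 4 such tests), and 0.1 is the smallest p that 3 libraries against 3 can give. The 24 h sums of 24746, 24624 and 23686 TPM (control) and 23941, 24187 and 23543 TPM (deoxyshikonin) overlapped (difference -461 TPM, exact permutation p = 0.3, adjusted 0.4). With libraries rescaled on the median-of-ratios principle, the differences were -3275 TPM at 6 h and -1815 TPM at 24 h, with no overlap at either time (exact permutation p = 0.1 each). The 10 most abundant loci of each library held 47.1% to 54.9% of the sum.

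**Figure D1:**
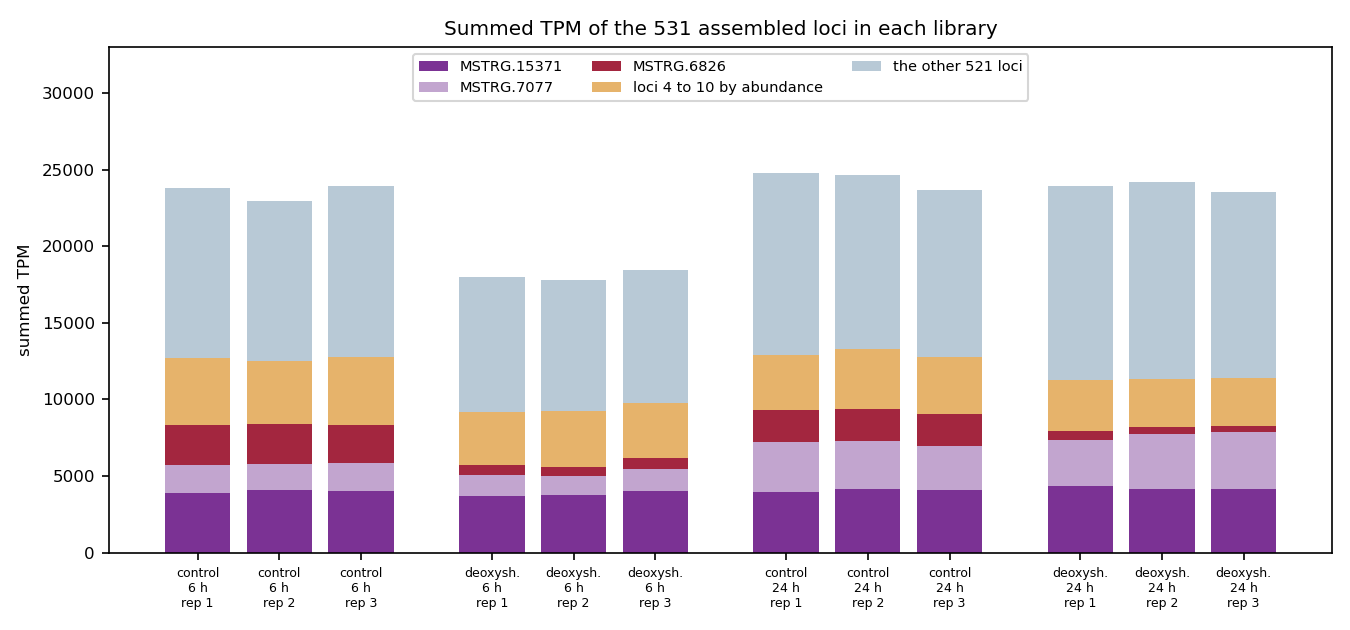
Summed TPM of the 531 loci (vertical axis, TPM, from 0) in each of the 12 libraries (horizontal axis, by group and replicate; deoxysh. is deoxyshikonin), stacked by the 3 most abundant loci, loci 4 to 10 by mean TPM and all others. The deoxyshikonin 6 h bars end between 17809 and 18471 TPM, below the other 9, and the MSTRG.6826 segment is small in all treated libraries.

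A single locus carried more of these differences than any other. MSTRG.6826 had 2571, 2549 and 2462 TPM in control 6 h libraries and 649, 586 and 716 TPM after 6 h of deoxyshikonin. The control 24 h libraries held 2100, 2080 and 2086 TPM, and the treated 24 h libraries 548, 438 and 406 TPM. Treated libraries stood far below controls at both times, with no overlap. The log2 change was -1.96 ± 0.0967 (SE) at 6 h (limma with Benjamini-Hochberg adjustment, adjusted p = 1.18e-08) and -2.18 ± 0.0967 at 24 h (adjusted p = 3.75e-08), and the interaction, the 24 h effect less the 6 h effect, was -0.22 (adjusted p = 0.185). MSTRG.6826 accounted for -1877 TPM of the 6 h difference in the sum; without it the 6 h difference was -3593 TPM. At 24 h it accounted for -1625 TPM, and without it the 24 h difference was 1163 TPM, of the opposite sign.

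Other abundant loci moved differently. MSTRG.15371, the most abundant, had 3928, 4069 and 4040 TPM in control 6 h and 3713, 3776 and 4055 in deoxyshikonin 6 h libraries, groups that overlapped. Its log2 change was -0.06 at 6 h (adjusted p = 0.135) and 0.06 at 24 h (adjusted p = 0.187). MSTRG.7077 had 1825, 1750 and 1822 TPM in control 6 h and 1369, 1231 and 1406 TPM in deoxyshikonin 6 h libraries, and rose in both arms to between 2913 and 3715 TPM by 24 h. It fell with treatment at 6 h (log2 -0.43, adjusted p = 0.000249) and showed 0.15 at 24 h (adjusted p = 0.111). MSTRG.5617 went the opposite way with time: 736, 819 and 834 TPM in control 6 h and 902, 926 and 965 in deoxyshikonin 6 h libraries, then 448, 474 and 486 in control 24 h and 270, 296 and 295 in deoxyshikonin 24 h libraries. It was higher with treatment at 6 h (log2 0.23, adjusted p = 0.00303) and lower at 24 h (log2 -0.71, adjusted p = 2.1e-06). MSTRG.6914 fell at 6 h from 1042, 1036 and 1041 to 701, 681 and 701 TPM (log2 -0.58, adjusted p = 4.6e-06), and at 24 h its control values of 592, 554 and 624 overlapped the treated values of 684, 610 and 567. MSTRG.7953 was lower with treatment at both times (log2 -0.35 and -0.24, adjusted p = 0.00026 and 0.00745). Apart from MSTRG.14964, described below, the 3 others of the 10 most abundant loci had log2 changes at 6 h of -0.25 for MSTRG.14973, 0.15 for MSTRG.13711 and -0.36 for MSTRG.801 (adjusted p = 0.0105, 0.0176 and 0.0308), each lost under at least 1 setting. These were median-of-ratios rescaling for MSTRG.14973 (0.365) and leaving out deoxyshikonin 6 h replicate 2 for MSTRG.13711 (0.0535). The MSTRG.801 call was lost without control 6 h replicate 1 (0.105) or 3 (0.108) or deoxyshikonin 6 h replicate 1 (0.115) or 3 (0.0833), with no filter on low values (0.0677), under quantile normalization (0.077) or median-of-ratios rescaling (0.22) and in a fit of only the compared groups (0.054).

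After 6 h, 268 of the 531 loci differed between treated and control cells at an adjusted p under 0.05 (limma, Benjamini-Hochberg over the 11897 tested rows), which is 50.5% of the loci against 75.4% of all tested rows. Of these, 63 were higher and 205 lower. Higher loci made up 11.9% of the 531, against 26.6% of all rows tested, and lower loci 38.6% against 48.7%. The median log2 change of the loci was -0.34, and that of all tested rows -0.20. Both medians depended on scaling, and the median-of-ratios version put them at -0.21 and -0.07. Quantile normalization gave 77 higher and 147 lower loci, a share of higher calls of 34.4% in place of 23.5%. With a minimum absolute log2 change of 1, 19 of the 531 loci were higher, against 669 of the 11897 tested rows (5.62%). Lower by this rule were 64 loci, against 1225 tested rows (10.3%). Treated and control libraries did not overlap at 281 loci, 52.9%, where the share over all tested rows was 79.2%.

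The lower loci at 6 h included MSTRG.15178, which had 98.2, 99.0 and 101.2 TPM in control and 18.0, 17.8 and 19.7 TPM in treated libraries at 6 h. By 24 h controls stood at 142, 140 and 144 TPM and treated libraries at 116, 110 and 111 TPM. Each of the 4 groups was separate from the next, and the 6 h treated libraries were the lowest by far. The log2 change was -2.37 ± 0.0432 (SE) at 6 h (limma adjusted p = 2.43e-11) and -0.34 ± 0.0432 at 24 h (adjusted p = 8.76e-05), and the interaction was 2.03 (adjusted p = 5.41e-09). Its neighbour by number, MSTRG.15179, had the same order of groups: 39.0, 41.2 and 40.4 TPM in control 6 h, 5.80, 4.70 and 6.17 in deoxyshikonin 6 h, 76.1, 77.8 and 68.8 in control 24 h and 53.5, 52.5 and 48.0 in deoxyshikonin 24 h libraries. It fell by 2.66 on the log2 scale at 6 h (adjusted p = 5.73e-10) and by 0.52 at 24 h (adjusted p = 0.000363). From the numbers alone, 1 transcript in pieces and 2 genes cannot be told apart.

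MSTRG.9407 and MSTRG.9410 also fell at 6 h. MSTRG.9407 had 26.8, 26.0 and 25.4 TPM in control 6 h and 5.22, 4.37 and 6.32 TPM in deoxyshikonin 6 h libraries (log2 -2.11, adjusted p = 8.94e-09). MSTRG.9410 had 22.7, 23.5 and 21.2 TPM and 5.32, 3.85 and 5.23 TPM in the same groups (log2 -2.02, adjusted p = 9.16e-08). At 24 h both remained lower with treatment, by -0.77 and -0.83 on the log2 scale (adjusted p = 9.6e-05 and 0.000364). MSTRG.14964, among the 10 most abundant loci, had 297, 190 and 252 TPM in control 6 h and 54.7, 44.0 and 89.2 TPM in deoxyshikonin 6 h libraries, a fall of 2.00 (adjusted p = 1.42e-05). It was higher in both arms at 24 h, where controls had 813, 912 and 659 TPM and treated libraries 499, 392 and 397 TPM (log2 -0.88, adjusted p = 0.0104). MSTRG.5731 fell at 6 h from 7.40, 5.79 and 5.66 TPM to 0.530, 0.830 and 0.310 TPM (log2 -2.23, adjusted p = 2.66e-07).

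At 2 of the 8 largest falls, the 24 h effect did not pass the threshold. MSTRG.2630 had 13.7, 13.03 and 8.46 TPM in control 6 h and was listed at 0, 0 and 2.92 TPM in deoxyshikonin 6 h libraries (log2 -2.99, adjusted p = 0.000114). By 24 h its control levels of 44.5, 30.2 and 29.7 TPM overlapped the treated levels of 56.6, 33.2 and 61.4 TPM (log2 0.50, adjusted p = 0.395). MSTRG.7390 had 16.5, 17.6 and 13.2 TPM and 4.33, 2.20 and 2.35 TPM at 6 h (log2 -2.11, adjusted p = 0.000394). At 24 h its controls, at 25.5, 24.5 and 7.92 TPM, overlapped the treated libraries at 33.5, 21.5 and 17.9 TPM (log2 0.43, adjusted p = 0.381). In both loci the interaction passed the threshold (3.49, adjusted p = 0.000762, and 2.54, adjusted p = 0.00182).

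Among the higher loci at 6 h, MSTRG.15176 was listed at 0 TPM in all 3 control 6 h libraries and at 17.8, 21.1 and 14.5 TPM in the treated ones (limma adjusted p = 2.47e-08). The 24 h levels were 1.61, 0.780 and 1.10 TPM without deoxyshikonin and 6.96, 4.43 and 10.1 TPM with it (log2 1.87 ± 0.231, adjusted p = 6.39e-05). All treated libraries exceeded all controls at both times, and the 6 h treated libraries were the highest. No fold is given at 6 h, because the control level is 0 and the file holds no depth. MSTRG.5745 was likewise at 0 in all control 6 h libraries, at 1.26, 3.75 and 3.40 TPM in deoxyshikonin 6 h (adjusted p = 0.000133), and at 0, 0.420 and 0 TPM in control 24 h and 1.24, 2.37 and 3.20 TPM in deoxyshikonin 24 h libraries (adjusted p = 0.00158). MSTRG.14798 was at 0, 0 and 0.890 TPM in control 6 h and at 10.9, 2.42 and 4.64 TPM in treated libraries (adjusted p = 0.000495). At 24 h it was at 0, 0 and 1.02 TPM against 2.23, 3.04 and 2.02 TPM (adjusted p = 0.0182), a call lost without control 24 h replicate 1 (0.0622), control 24 h replicate 2 (0.0615) or deoxyshikonin 24 h replicate 2 (0.0602).

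The other large rises at 6 h came from loci near or under 1 TPM in controls. MSTRG.1958 had 0.140, 0.130 and 0.120 TPM in control and 4.32, 3.70 and 4.45 TPM in treated libraries (log2 2.19 on the log2(TPM + 1) scale, adjusted p = 1.55e-07), and remained higher at 24 h (1.39, adjusted p = 2.56e-05). MSTRG.7392 went from 1.10, 0.700 and 0.860 to 6.86, 7.13 and 5.78 TPM (2.01, adjusted p = 7.65e-08), with 0.78 at 24 h (adjusted p = 0.000451). MSTRG.13104 had 0.610, 0 and 0.270 TPM in control and 4.55, 4.80 and 2.95 TPM in treated libraries at 6 h (1.99, adjusted p = 2.75e-06), and at 24 h 0.31 (adjusted p = 0.217). These 3 loci had a smaller treatment effect at 24 h than at 6 h, with interactions of -0.79, -1.22 and -1.68 (adjusted p = 0.00738, 0.000133 and 0.000301). MSTRG.11075 rose from 0.110, 0 and 0.05 to 3.03, 2.27 and 4.37 TPM at 6 h, and MSTRG.12778 from 1.25, 1.11 and 1.47 to 5.24, 6.99 and 5.57 TPM (log2 1.97 and 1.60, adjusted p = 6.2e-07 and 1.97e-07). Both were also higher at 24 h, by 1.00 and 1.34 (adjusted p = 0.000457 and 4e-06).

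**Figure D2:**
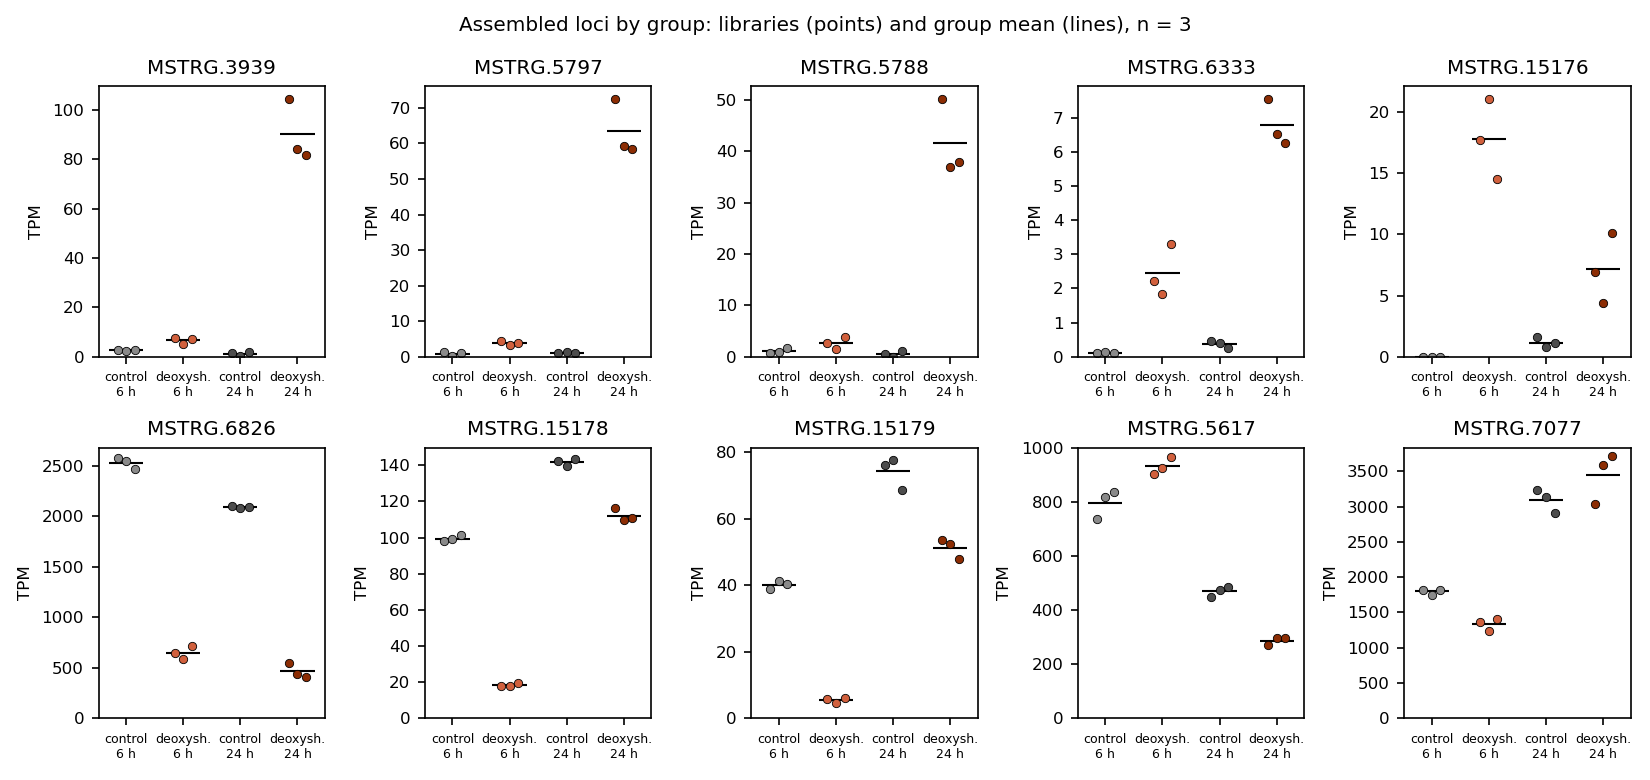
TPM of 10 loci (1 panel each, linear vertical axis from 0) by group (horizontal axis; deoxysh. is deoxyshikonin); points are libraries and lines are group means. MSTRG.3939, MSTRG.5797 and MSTRG.5788 are high in the deoxyshikonin 24 h libraries, MSTRG.15178 and MSTRG.15179 are lowest in the deoxyshikonin 6 h libraries, and MSTRG.6826 is low in both treated groups.

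After 24 h, 173 of the 531 loci passed the threshold (limma), 32.6% against 50.3% of all tested rows. They were 110 higher (20.7% of the loci, 32.2% of all rows) and 63 lower (11.9% and 18.1%). The median log2 change was 0.15, against 0.09 over all rows; it was 0.08 and 0.01 under median-of-ratios rescaling and 0.07 and 0.01 under quantile normalization. The split depended on scaling: median-of-ratios rescaling gave 82 higher and 72 lower, and quantile normalization 88 and 78, so the share of higher calls was 53.2% or 53.0% in place of 63.6%. A log2 change of at least 1 was reached by 28 higher loci of the 531, against 279 of the 11897 tested rows (2.35%). Lower by this rule were 14 loci, against 248 tested rows (2.08%). Libraries did not overlap at 204 loci, or 38.4%, where the share over all tested rows was 56.0%.

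The largest rises at 24 h were at 3 loci with low levels in every other group. MSTRG.3939 had 2.57, 2.42 and 2.83 TPM in control 6 h, 7.78, 5.38 and 7.20 in deoxyshikonin 6 h, 1.47, 0.220 and 1.92 in control 24 h and 104.5, 84.2 and 81.9 TPM in deoxyshikonin 24 h libraries. MSTRG.5797 had 1.41, 0.200 and 1.13, then 4.49, 3.20 and 3.91, then 1.14, 1.36 and 0.950, and finally 72.5, 59.3 and 58.3 TPM in the same order of groups. MSTRG.5788 had 0.790, 0.960 and 1.71, then 2.60, 1.55 and 3.80, then 0.570, 0 and 1.11, and finally 50.2, 37.0 and 37.9 TPM. In each of these loci the treated 24 h libraries stood far above all 9 other libraries. The log2 changes at 24 h were 5.46, 4.90 and 4.83 (SE 0.263, 0.220 and 0.289; limma adjusted p = 6.11e-08, 3.87e-08 and 2.78e-07). At 6 h they were 1.10 and 1.40 for MSTRG.3939 and MSTRG.5797 (adjusted p = 0.00259 and 0.000124). MSTRG.5788 had 0.74 at 6 h (adjusted p = 0.0368), where control and treated libraries overlapped, and this call was lost with a pseudocount of 0.1, with no filter on low values and without control 6 h replicate 1 or 2 or deoxyshikonin 6 h replicate 1 or 3 (adjusted p = 0.0797 to 0.182). The interaction was 4.36, 3.50 and 4.09 for the 3 loci (adjusted p = 2.43e-06, 3.24e-06 and 7.75e-06).

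Each of these 3 loci was nearest to the other 2 among the tested rows. The root mean square difference of centred log2 levels over the 12 libraries, computed between each locus and the 11896 other tested rows, was 0.32 between MSTRG.3939 and MSTRG.5788, 0.54 between MSTRG.3939 and MSTRG.5797 and 0.51 between MSTRG.5797 and MSTRG.5788. No tested row lay within 0.3 of any of the 3. The genes with a symbol closest to MSTRG.3939 were UCHL1, a neuronal ubiquitin hydrolase, at 0.88, UCP2, a mitochondrial carrier protein, at 0.93 and GPX3, a glutathione peroxidase, at 0.93. The TPM of MSTRG.3939 was 1.44, 1.42 and 1.41 times that of MSTRG.5797 and 2.08, 2.28 and 2.16 times that of MSTRG.5788 in the deoxyshikonin 24 h libraries. In the deoxyshikonin 6 h libraries the same ratios were 1.73, 1.68 and 1.84 to MSTRG.5797 and 2.99, 3.47 and 1.89 to MSTRG.5788. The same measure placed GABARAPL1, a ubiquitin-like autophagy protein, nearest to MSTRG.15176 at 0.34 (0 tested rows within 0.3), followed by HSPB8, a small heat shock protein, at 0.46. For MSTRG.15178 it named MMP15, a membrane-type matrix metalloproteinase, and ST6GAL1, a sialyltransferase, at 0.14 and 0.15 (32 tested rows within 0.3). For MSTRG.6826 it gave SPAG16 at 0.16 and HMMR, a hyaluronan-binding protein of the mitotic spindle, at 0.19 (13 rows within 0.3). The measure was added after the values of these loci had been seen and is a description of shared profiles only.

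Other loci higher at 24 h had lower levels. MSTRG.13077 had 0.590, 0.260 and 0 TPM in control and 5.91, 8.15 and 9.05 TPM in treated libraries (log2 2.77, adjusted p = 9.36e-07), and 0.86 at 6 h (adjusted p = 0.00182). MSTRG.6333 had 0.450, 0.390 and 0.270 against 7.55, 6.51 and 6.24 TPM (2.50, adjusted p = 1.88e-07), after 0.110, 0.130 and 0.120 against 2.22, 1.83 and 3.30 TPM at 6 h (1.60, adjusted p = 1.14e-06). MSTRG.5787, the neighbour by number of MSTRG.5788, was at 0, 0.180 and 0 TPM in control and 6.25, 3.53 and 3.85 TPM in treated libraries at 24 h (2.36, adjusted p = 1.56e-06). At 6 h it was at 0 in all controls and at 0.200, 0.520 and 0.210 TPM in treated libraries (adjusted p = 0.0723), so the interaction is not given here. MSTRG.13237 went from 0, 0 and 6.47 to 7.41, 9.77 and 19.0 TPM (2.64, adjusted p = 0.00682), and MSTRG.4913 from 3.18, 0 and 9.89 to 11.3, 26.6 and 35.6 TPM (2.70, adjusted p = 0.0141). The MSTRG.4913 call did not hold without deoxyshikonin 24 h replicate 3 (adjusted p = 0.0559).

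The falls at 24 h were led by MSTRG.6826, described above. MSTRG.15888 had 119, 104.7 and 35.4 TPM in control 24 h and 17.0, 16.5 and 18.1 TPM in treated libraries (log2 -2.09, adjusted p = 0.00211). Its controls at 6 h, at 9.71, 26.0 and 14.9 TPM, lay below those at 24 h, and its 6 h change was -0.99 (adjusted p = 0.0554). MSTRG.5005 and MSTRG.5007, 2 numbers apart, fell at both times. MSTRG.5005 went from 7.92, 7.63 and 8.35 to 2.27, 1.83 and 1.95 TPM at 24 h (log2 -1.57, adjusted p = 2.41e-07) and by -1.26 at 6 h (adjusted p = 2.31e-07). MSTRG.5007 went from 14.8, 14.3 and 11.4 to 3.79, 5.01 and 3.59 TPM at 24 h (-1.50, adjusted p = 5.91e-06) and by -1.56 at 6 h (adjusted p = 9.29e-07). MSTRG.14991 went from 87.8, 74.9 and 53.3 to 23.1, 33.4 and 22.9 TPM (-1.40, adjusted p = 0.00346), and MSTRG.12805 from 7.85, 7.35 and 7.59 to 2.69, 2.52 and 2.46 TPM (-1.27, adjusted p = 6.11e-08). MSTRG.1592 went from 8.09, 7.96 and 5.71 to 1.83, 5.69 and 1.14 TPM (-1.25, adjusted p = 0.00968), so 1 treated library lay just under the lowest control. MSTRG.14979 fell by 1.24 (adjusted p = 0.000115).

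**Figure D3:**
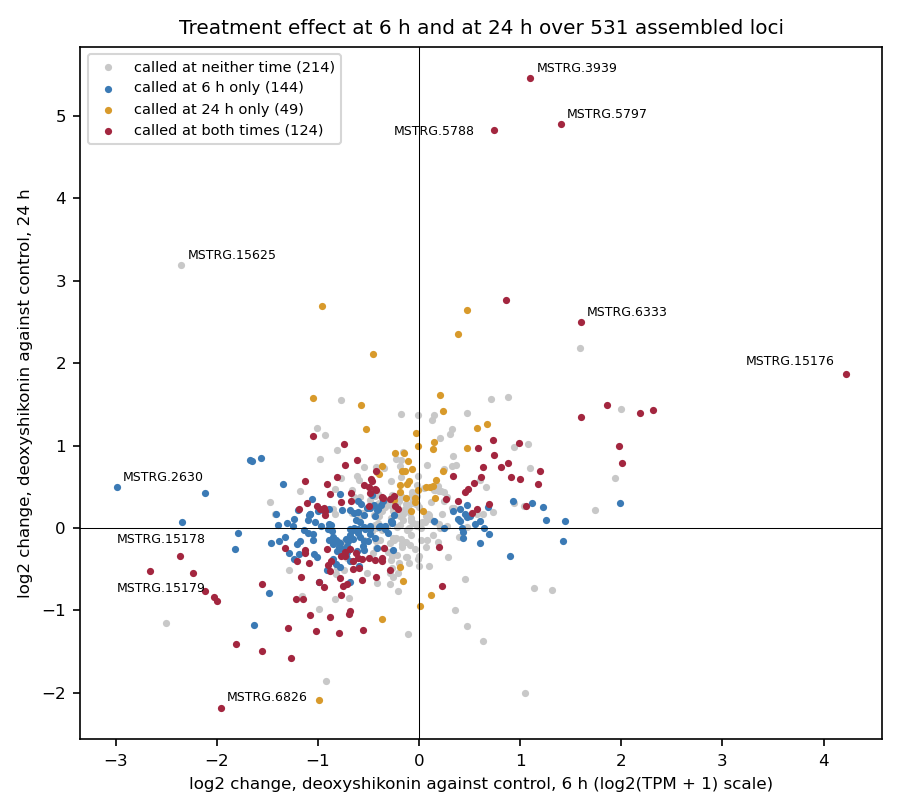
Log2 change at 6 h (horizontal axis) against log2 change at 24 h (vertical axis), both deoxyshikonin against control on the log2(TPM + 1) scale; each point is 1 of the 531 loci, coloured by the times at which it passed the threshold, and lines mark 0. MSTRG.6826 lies near -2 on both axes (-1.96 and -2.18), and MSTRG.3939, MSTRG.5797 and MSTRG.5788 lie high on the 24 h axis.

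The comparisons at 6 h and 24 h used separate control libraries. In all, 317 of the 531 loci passed at 1 or both times and 124 at both, which is 46.3% of the 6 h list and 71.7% of the 24 h list. Passing at 1 or both times were 59.7% of the loci, against 84.7% of all tested rows, and passing at both 23.4% against 41.0%. Among these 124, 34 rose at both times (6.40% of the loci, 16.1% of all rows) and 55 fell at both (10.4% and 14.6%), while 33 changed from lower at 6 h to higher at 24 h (6.21% and 8.93%). The remaining 2 (0.377% and 1.40%), MSTRG.5617 and MSTRG.6403, changed from higher to lower. MSTRG.6403 was chosen for its place in this count: it had 6.56, 6.60 and 6.01 TPM in control 6 h and 7.66, 7.33 and 7.41 in deoxyshikonin 6 h libraries (log2 0.20, adjusted p = 0.0123), and 5.09, 4.87 and 4.62 against 3.77, 4.24 and 3.96 TPM at 24 h (-0.23, adjusted p = 0.00897). A further 117 passed as lower at 6 h alone (22.0% of the loci, 25.2% of all rows), 27 as higher at 6 h alone (5.08% and 9.19%), 43 as higher at 24 h alone (8.10% and 7.21%) and 6 as lower at 24 h alone (1.13% and 2.11%). Passing at 1 time and not the other does not show that the effects differ, so the difference itself was tested.

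The interaction of treatment and time passed at 202 loci, 38.0% against 63.0% of all tested rows (limma). The 24 h effect was the higher at 171 of them and the lower at 31. Over all tested rows the shares were 45.0% and 18.0%, against 32.2% and 5.84% of the loci. An interaction of at least 1 was reached in the higher direction by 77 of the 531 loci, against 1198 of the 11897 tested rows (10.1%). In the lower direction it was reached by 6 loci, against 334 tested rows (2.81%). The median interaction was 0.42, against 0.25 over all rows (0.24 and 0.04 under median-of-ratios rescaling, 0.19 and 0.01 under quantile normalization). Under median-of-ratios rescaling the split was 123 and 48, and under quantile normalization 114 and 59, with 71.9% and 65.9% higher in place of 84.7%. Of the 205 loci lower at 6 h, 130 had an interaction that passed in the higher direction, 63.4% against 78.6% of the 5798 tested rows lower at 6 h. MSTRG.15625 had the largest interaction, 5.54 ± 1.90 (SE; adjusted p = 0.0245), with 23.0, 51.7 and 57.3 TPM in control 6 h, 12.9, 0 and 38.9 in deoxyshikonin 6 h, 6.04, 59.8 and 0.750 in control 24 h and 77.4, 80.1 and 88.3 TPM in deoxyshikonin 24 h libraries. Its replicates spread over most of the range in 3 of the 4 groups, neither treatment effect passed (adjusted p = 0.132 and 0.0686), and the interaction was lost with no filter on low values (0.0602) and without control 24 h replicate 3 (adjusted p = 0.0587), control 6 h replicate 2 (0.0503) or control 6 h replicate 3 (0.0515). MSTRG.9601, with 3.72, 3.87 and 3.16 TPM in control and 9.61, 12.6 and 11.7 TPM in treated libraries at 6 h, rose at 6 h (log2 1.42, adjusted p = 1.89e-07) and not at 24 h (-0.16, adjusted p = 0.218), with an interaction of -1.58 (adjusted p = 3.77e-06).

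The sampling times were also compared within each arm. Between control 6 h and control 24 h libraries, 186 loci passed (35.0%, against 56.4% of all rows). Of these, 113 were higher at 24 h (21.3% of the loci, 22.2% of all rows) and 73 lower (13.7% and 34.2%). The median log2 change was 0.07, against -0.07 over all rows. Under median-of-ratios rescaling 133 were higher and 55 lower, 70.7% higher in place of 60.8%, and the medians were 0.15 and 0.02, so that of all rows changed sign. A change of at least 1 was reached by 28 higher loci of the 531, against 204 of the 11897 tested rows (1.71%). Lower by this rule were 9 loci, against 246 tested rows (2.07%). The groups did not overlap at 224 loci, or 42.2%, against 63.8% of all rows. MSTRG.13229 had the largest rise, from 0, 9.86 and 11.1 to 39.3, 76.0 and 30.1 TPM (log2 3.18, adjusted p = 0.00432), and MSTRG.9300 rose from 0, 7.16 and 9.28 to 28.1, 16.7 and 25.4 TPM (2.44, adjusted p = 0.0152; 0.0528 in a fit of only the compared groups). MSTRG.3980 had 3.50, 0 and 6.35 TPM in control 6 h and 9.73, 15.4 and 26.9 TPM in control 24 h libraries (2.40, adjusted p = 0.0146), a call lost with a pseudocount of 0.1 (0.069) and without control 24 h replicate 3 (0.0582) or control 6 h replicate 2 (0.053). The largest decrease with time, of MSTRG.4913 (-2.09, adjusted p = 0.0396), was lost without any 1 of the control 6 h replicates, control 24 h replicate 1 or 2, or replicate 2 of either treated group (adjusted p = 0.0509 to 0.153). MSTRG.15880 and MSTRG.15025 fell by 1.42 and 1.06 (adjusted p = 0.00184 and 2.2e-05). MSTRG.15025 went from 28.9, 27.5 and 25.7 to 14.2, 12.9 and 11.0 TPM. Between deoxyshikonin 6 h and 24 h libraries, 295 loci passed (55.6%, against 75.0% of all rows). Of these, 246 were higher at 24 h (46.3% of the loci, 46.8% of all rows) and 49 lower (9.23% and 28.2%). The median log2 change was 0.52, against 0.16 over all rows (0.42 and 0.04 under median-of-ratios rescaling). A change of at least 1 was reached by 128 higher loci of the 531, against 1409 of the 11897 tested rows (11.8%). Lower by this rule were 11 loci, against 510 tested rows (4.29%). Quantile normalization gave 183 and 81, or 69.3% higher in place of 83.4%. Groups did not overlap at 311 loci, or 58.6%, against 76.5%. MSTRG.2630 rose most, by 4.98 (adjusted p = 1.85e-06), and MSTRG.5617 fell most, by 1.70 (adjusted p = 1.03e-09). MSTRG.13807, at 0, 16.5 and 0 TPM in deoxyshikonin 6 h and 38.8, 19.5 and 42.6 TPM in deoxyshikonin 24 h libraries (3.66, adjusted p = 0.014), lost its call without deoxyshikonin 6 h replicate 1 (0.0602) or 3 (0.0585). The 5 comparisons left 143 loci that passed in none of them, 26.9% against 7.15% of all tested rows.

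The spread between replicates was wider at these loci than at Ensembl genes of the same abundance. The median residual SD of log2(TPM + 1) was 0.266 over the 531 loci and 0.0930 over the 11366 Ensembl genes, whose median mean TPM was 16.4 against 7.97. The gap was present in each class of mean TPM: 0.221 against 0.135 for 216 loci from 1 to 5 TPM, 0.263 against 0.1001 for 166 from 5 to 20 TPM, 0.380 against 0.0782 for 119 from 20 to 100 TPM and 0.171 against 0.0601 for 30 at 100 TPM or more. Above the upper quartile of the Ensembl genes lay 130, 132, 108 and 22 loci of these classes. At 6 h the share passing the threshold was 54.2%, 54.2%, 34.5% and 66.7% of the loci, against 64.1%, 78.0%, 81.0% and 82.1% of the Ensembl genes. The class from 20 to 100 TPM had both the widest spread and the lowest share.

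**Figure D4:**
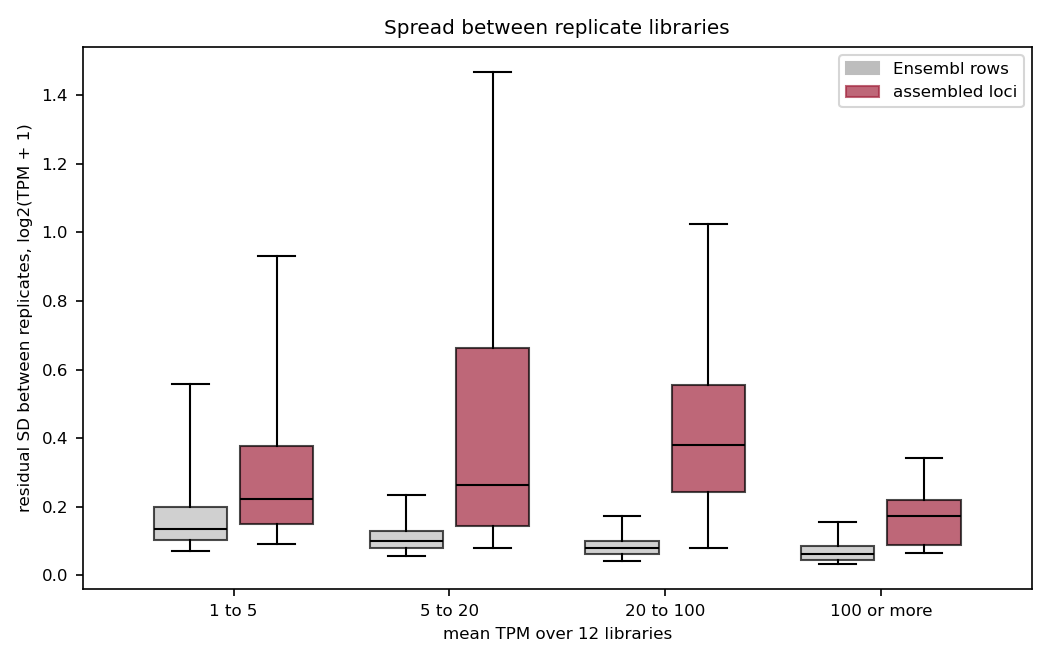
Residual SD between replicates on log2(TPM + 1) (vertical axis) by class of mean TPM (horizontal axis) for Ensembl genes (grey) and assembled loci (red); boxes span the quartiles, black lines are medians and whiskers reach the 5th and 95th percentiles. The red median is above the grey one in each class, by most from 20 to 100 TPM (0.380 against 0.0782).

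**Figure D5:**
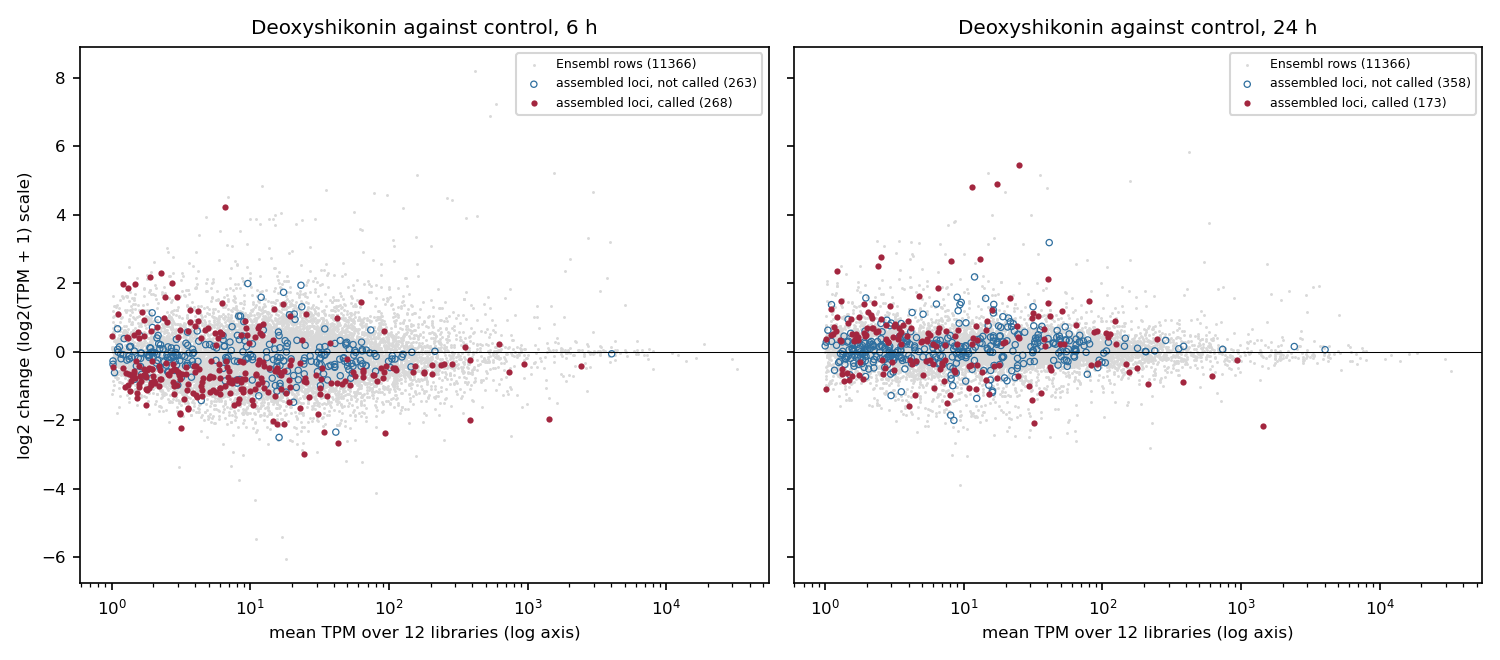
Log2 change of deoxyshikonin against control (vertical axis, log2(TPM + 1) scale) against mean TPM (horizontal log axis) at 6 h (left) and 24 h (right); grey points are 11366 Ensembl genes, filled red points loci past the threshold and open blue points other loci. At 6 h the red points number 268 and lie mostly below 0; at 24 h they number 173 and lie mostly above it.

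Some loci combined zeros with high values. At 0 in at least 1 library were 77 loci, and 454 were above 0 in every library. In 28 loci a 0 in 1 library stood beside 20 TPM or more in another, and 7 of them showed both within 1 group (MSTRG.15625, MSTRG.12816, MSTRG.2500, MSTRG.2506, MSTRG.2911, MSTRG.4593 and MSTRG.5021). MSTRG.12816 had 35.8, 0 and 5.84 TPM in the deoxyshikonin 6 h libraries, and MSTRG.2911 had 24.97, 31.4 and 0 TPM in the deoxyshikonin 24 h libraries. Of the 28 loci, MSTRG.15176, MSTRG.2500, MSTRG.2630 and MSTRG.5788 passed at 6 h and MSTRG.15176, MSTRG.4913 and MSTRG.5788 at 24 h. MSTRG.2500 had 17.4, 37.0 and 71.3 TPM in control and 16.7, 0 and 20.5 TPM in treated libraries at 6 h, which overlapped (log2 -2.35, adjusted p = 0.0496). That call did not hold with a pseudocount of 0.1, with no filter, under either rescaling, with the replicate block, in a fit of only the compared groups or with no trend. It was also lost without control 6 h replicate 2 or 3, deoxyshikonin 6 h replicate 2 (log2 -0.92) or any 1 of the 24 h libraries (adjusted p = 0.0538 to 0.17 over all these settings). The number of loci above 0 was 508, 512 and 517 in control 6 h and 510, 507 and 513 in deoxyshikonin 6 h libraries, which overlapped. It was 517, 521 and 518 in control 24 h and 523, 524 and 524 in deoxyshikonin 24 h libraries, higher in all treated libraries (difference 5 loci, exact permutation p = 0.1, adjusted 0.2).

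Loci listed at 0 in a whole group were few. In control 6 h these were 6 loci, among them MSTRG.15176, MSTRG.5745 and MSTRG.5787, which alone were above 0 in all 3 treated libraries of that time. MSTRG.2634 was at 0 in all libraries of both 6 h groups. It had 6.29, 0 and 6.37 TPM in control 24 h and 0, 19.6 and 0 TPM in deoxyshikonin 24 h libraries, so the 24 h groups overlapped. MSTRG.3553 was also at 0 in all deoxyshikonin 6 h libraries. No locus was at 0 in all libraries of a 24 h group, nor at 0 in all treated and above 0 in all control libraries of either time.

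Loci with neighbouring numbers were also compared. There were 77 pairs of consecutive numbers, covering 134 loci. Taken singly, 50.5% of the 531 loci passed at 6 h and 32.6% at 24 h. Whether the pair counts below differ from what these shares alone would give was not tested. At 6 h both members passed in 23 pairs: 17 both lower, 4 both higher (MSTRG.4149 and MSTRG.4150, MSTRG.5778 and MSTRG.5779, MSTRG.15018 and MSTRG.15019, MSTRG.15019 and MSTRG.15020) and 2 opposite. The opposite pairs were MSTRG.6124 and MSTRG.6125, at log2 0.69 and -1.24, and MSTRG.6402 and MSTRG.6403, at -0.26 and 0.20. In 34 pairs 1 member passed and in 20 none did. At 24 h both passed in 8 pairs: 4 higher (MSTRG.4149 and MSTRG.4150, MSTRG.5744 and MSTRG.5745, MSTRG.5787 and MSTRG.5788, MSTRG.12131 and MSTRG.12132), 3 lower (MSTRG.6003 and MSTRG.6004, MSTRG.7953 and MSTRG.7954, MSTRG.15178 and MSTRG.15179) and 1 opposite (MSTRG.14991 and MSTRG.14992, at -1.40 and 0.36). Across the 77 pairs, which share libraries and can share members, Pearson's r of the log2 changes was 0.20 at 6 h and 0.17 at 24 h, a weak description over pairs that are not independent.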

How the data were processed

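Total RNA of IPEC-J2 cells was sequenced, per the labels' protocols. The authors deposited 1 table of TPM, and its 12 columns each sum to between 999999 and 1000000, with 2 decimals; TPM keeps no depth, so no counting interval or detection limit can be given. The submitters' processing notes name fastp, HISAT and RSEM without versions or roles; genome build, annotation and assembler are not given in the sources used here. Groups came from the titles and treatment labels. TPM is relative to each library's total, so values shift together when a part of the RNA changes.

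Tests used rows averaging 1 TPM or more, on log2(TPM + 1), which understates changes of low rows, with limma 3.58.1 (eBayes with trend) in R 4.3.3, in 1 fit over 4 groups with 8 residual degrees of freedom. P-values were adjusted by Benjamini-Hochberg over 11897 rows, with a threshold of 0.05. The procedure was also run on simulated data in which only a small part of the rows was changed. In the real data most tested rows passed at 6 h, so that run does not vouch for the calls given here. Single values per library were compared by exact two-sided permutation in scipy 1.17.1. Loci named are the 8 largest rises and falls of the treatment comparisons and the 3 largest of the others (past the threshold, compared groups not overlapping; no overlap was required for the interaction), the 10 most abundant, loci at 0 in a whole group with a mean of at least 5 TPM in another, and those at 0 and at 20 TPM or more within 1 group. Other loci are named where a count of 5 or fewer needed it, after their values were seen. The members and lists were chosen with earlier results of these data known. Alternatives were a pseudocount of 0.1, no filter, a minimum mean TPM of 5, quantile normalization, median-of-ratios rescaling over 7459 rows, a block for the replicate number, fits restricted to the compared groups, no trend, an absolute log2 change of 1 or more as a further condition, and 12 fits that each drop 1 library.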

Additional observations from a re-analysis of the deposited data

Results flagged for a closer look

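The treatment effect differed between 6 h and 24 h at 202 of the 531 loci, by the interaction term of the limma fit (Benjamini-Hochberg adjusted p under 0.05). This is 38.0% of the loci, a smaller share than the 63.0% of all tested rows. Values below are the log2 effect at 24 h minus that at 6 h. Among named loci whose effect was lower at 24 h, it was -2.34 for MSTRG.15176 (a value that rests on 6 h controls listed at 0 and depends on the pseudocount), -0.79 for MSTRG.1958, -1.22 for MSTRG.7392, -1.68 for MSTRG.13104 and -0.97 for MSTRG.11075. It was -1.58 for MSTRG.9601, -0.94 for MSTRG.5617, -0.48 for MSTRG.12805 and -0.68 for MSTRG.14979. The MSTRG.14979 call was lost with no filter on low values (limma adjusted p = 0.0592) and without control 24 h replicate 1, control 6 h replicate 2 or 3 or deoxyshikonin 24 h replicate 2 (0.0525 to 0.0628).

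Loci that fell at 6 h and less or not at 24 h gave interactions of 3.49 for MSTRG.2630, 2.14 for MSTRG.15179, 2.03 for MSTRG.15178, 1.69 for MSTRG.5731, 2.54 for MSTRG.7390, 1.34 for MSTRG.9407, 1.19 for MSTRG.9410 and 1.12 for MSTRG.14964. The abundant loci MSTRG.7077, MSTRG.6914, MSTRG.14973 and MSTRG.801 had 0.58, 0.65, 0.40 and 0.69, and MSTRG.15025 had 0.66. Median-of-ratios rescaling gave 0.17 for MSTRG.14973 (limma adjusted p = 0.277) and 0.45 for MSTRG.801 (0.0789), which did not pass. Loci with the larger rise at 24 h had 4.36 for MSTRG.3939, 3.50 for MSTRG.5797, 4.09 for MSTRG.5788, 1.91 for MSTRG.13077, 0.90 for MSTRG.6333 and 1.98 for MSTRG.5787, the last of which also rests on 6 h controls at 0. MSTRG.4913 had 3.65, with a 6 h log2 change of -0.96 that did not pass (limma adjusted p = 0.285). With a pseudocount of 0.1 MSTRG.6333 had 0.39 (limma adjusted p = 0.343). MSTRG.15625 had 5.54 with neither time past the threshold.

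The 79 MSTRG loci under the abundance rule, which lie outside the tested rows, were compared by their sum. Their summed TPM was 35.8, 26.5 and 37.4 in control 24 h and 49.1, 48.9 and 43.5 in deoxyshikonin 24 h libraries, without overlap and 13.9 TPM higher on average (exact two-sided permutation p = 0.1, the smallest possible, adjusted 0.1 over 2 tests). At 6 h control sums of 23.8, 32.3 and 26.6 TPM stood above treated sums of 21.3, 21.7 and 22.3 TPM.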

How the results depend on the processing

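Counts of loci are given here in the order 6 h, 24 h, interaction, control time and treated time. An added minimum absolute log2 change of 1 left 83, 42, 83, 37 and 139 of the 531 loci. Over the 11897 tested rows it left 1894, 527, 1532, 450 and 1919. A minimum mean TPM of 5, which tests fewer loci by construction, left 154, 100, 114, 117 and 163. For this and the following settings the counts over all rows are not given, so the counts describe only how the calls at these loci held. The replicate block gave 273, 172, 204, 186 and 301. Correlations of deviations ran from -0.117 to 0.109 between same-numbered libraries and from -0.105 to 0.120 between differently numbered ones. The same-numbered values were 0.060, 0.038 and 0.054 between control and treated libraries at 6 h. Between control 6 h and control 24 h libraries they were 0.004, -0.115 and -0.046. Between deoxyshikonin 6 h and deoxyshikonin 24 h libraries they were 0.083, 0.062 and 0.075. Between deoxyshikonin 6 h and control 24 h libraries they were 0.021, 0.031 and 0.036. For control 6 h with deoxyshikonin 24 h they were -0.033, -0.095 and -0.117, and for the 24 h groups 0.068, -0.000 and 0.109. In each comparison with the deoxyshikonin 6 h group, every same-numbered value lay above every differently numbered one. The fit with the replicate block is an alternative only, and a pairing by replicate number was not tested. The other alternatives kept each count within 1.5 times. Leaving out 1 library gave 240 to 275, 136 to 174, 183 to 205, 148 to 190 and 275 to 304 loci, summed TPM differences of -5773 to -5283 at 6 h and -794 to -264.5 at 24 h, and differences in the number of loci above 0 of -4.5 to 0 and 4.17 to 6.17. With a minimum mean of 5 TPM the number above 0 differed by 1 at 6 h in place of -2.33 (exact permutation p = 0.7), a reversed sign in a difference that did not pass. MSTRG.5005 showed -0.0505 between treated times under quantile normalization (limma adjusted p = 0.662) in place of 0.32; the cause was not tested. Of 168 called log2 changes of named loci, 127 kept call and direction under every setting counted here and 41 lost the call under at least 1. This count left out the minimum mean TPM of 5 and the added minimum absolute log2 change of 1. Depth is unknown, so loci listed at 0 may lie under detection.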

Other observations

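The 79 loci with an MSTRG identifier and a mean TPM under 1 were not among the tested rows of the per-locus comparisons. At 24 h, 3 of them had TPM above 0 in every treated library with each control at 0, and 2 showed the reverse. At 6 h the counts were 0 and 3. How often other rows of such low abundance show these patterns was not counted, so nothing particular to these loci is read from them.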
